A study of Mus musculus with 11 samples.

Results

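The MHC class II genes of the mouse were followed in RNA of eosinophils sorted from blood. The 10 genes were chosen by symbol in the deposited count table, which holds 55486 genes. They are the invariant chain gene Cd74, the chain genes H2-Aa, H2-Ab1 and H2-Eb1, the peptide editor genes H2-DMa, H2-DMb1 and H2-DMb2, the editor inhibitor genes H2-Oa and H2-Ob, and the regulator gene Ciita. All 10 were found. Tested were 7 libraries from FVB/N mice given cisplatin with antibodies against PD1 and CTLA4 (labelled CIS+IT, here treated), and 4 libraries from FVB/N mice given control antibody (labelled Control Ab, here control). Each library came from 1 mouse, per the design text. All 11 mice carried metastatic disease derived from mammary tumours and were sampled on day 21 after treatment began. Cisplatin is a DNA-crosslinking drug, and both antibodies block inhibitory receptors of T cells. Cells were sorted as live, CD45-positive, CD3-negative, CD11b-positive and F4/80-positive, with low Ly6g and high side scatter. Single antibodies or cisplatin alone were not among the groups, so their separate parts cannot be told apart here.

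MHC class II molecules are pairs of an alpha and a beta chain that present peptides from endosomes to CD4 T cells. The invariant chain guards the new pair on its way to the endosome, the DM pair then exchanges the remaining invariant chain fragment for peptide, and the DO pair restrains DM. Ciita is the transactivator that switches on these genes as a set, through factors bound to shared promoter elements. B cells, dendritic cells and macrophages are the classical producers, while blood eosinophils carry little class II protein at rest and can gain it when activated.

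Library totals were 5356118 to 8016658 counts in treated and 3733156 to 6721060 in control libraries. The eosinophil markers Siglecf, Ccr3 and Il5ra were detected in all 11 libraries, with Il5ra lowest in control 3. Epx, also chosen as a defining eosinophil marker, was detected in 6 treated and 4 control libraries and had 0 counts in treated 3. Control 3 and control 4 stood apart, with 28.2% and 20.1% of counts on 4 haemoglobin genes, against 1.16% to 4.42% in treated libraries and 1.06% and 0.165% in control 1 and control 2. In the table's header, the sample identifiers begin with 19 in all treated and 20 in all control libraries, so whatever these digits mark cannot be told apart from the treatment. The letters that follow are KDV in treated 1 and all controls, and VIS in the other treated libraries. Nothing in the labels explains these letters.

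Class II transcripts were present in every library, and their share of counts varied widely inside the treated group. The 10 genes took 1.48%, 1.39% and 1.22% of counts in treated 3, treated 6 and treated 4, and 0.602%, 0.483%, 0.254% and 0.10% in treated 2, treated 5, treated 1 and treated 7. In control 1 to control 4 the share was 0.337%, 0.109%, 0.245% and 0.148%. The widest 95% Wilson interval of these shares ran from 1.47% to 1.49%, in treated 3, and covers counting error only. Thus 5 treated libraries lay above all controls, while treated 1 and treated 7 lay among or below them. Cd74, H2-Aa and H2-Ab1 together held 90.0% to 93.9% of the class II counts in treated and 90.8% to 92.2% in control libraries. In bulk RNA, a change in the number of cells that carry a transcript and a change in transcript per cell cannot be told apart.

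Levels of different genes were compared as counts per 1000000 (CPM), scaled with edgeR's TMM factors, per kb of exon. On this scale the order of mean levels in treated libraries was Cd74, H2-Ab1, H2-Aa, H2-DMb2, H2-DMb1, H2-DMa, H2-Eb1, H2-Oa, H2-Ob and Ciita. Control libraries gave the same order except that H2-Oa stood before H2-Eb1. Cd74 had a level of 2047 ± 1358 CPM per kb in treated (SD, n = 7) and 687 ± 322 in control libraries (SD, n = 4). H2-Ab1 stood at 763 ± 509 and 267 ± 142 CPM per kb in treated and control libraries, and H2-Aa at 307 ± 222 and 100.1 ± 41.5. Cd74 exceeded H2-Ab1, and H2-Ab1 exceeded H2-Aa, in all 11 libraries. The 3 DM genes were close to each other, at 69.6 ± 53.2 for H2-DMb2, 48.8 ± 32.8 for H2-DMb1 and 47.4 ± 33.8 for H2-DMa in treated libraries, and changed places between libraries. H2-Eb1 was below H2-DMa in all 11 libraries and changed places with H2-Oa. H2-Oa and H2-Ob also changed places, as did H2-Ob and Ciita. Ciita, a regulator that acts at low abundance, was lowest at 3.59 ± 3.07 CPM per kb in treated and 1.68 ± 0.636 in control libraries.

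**Figure D1:**
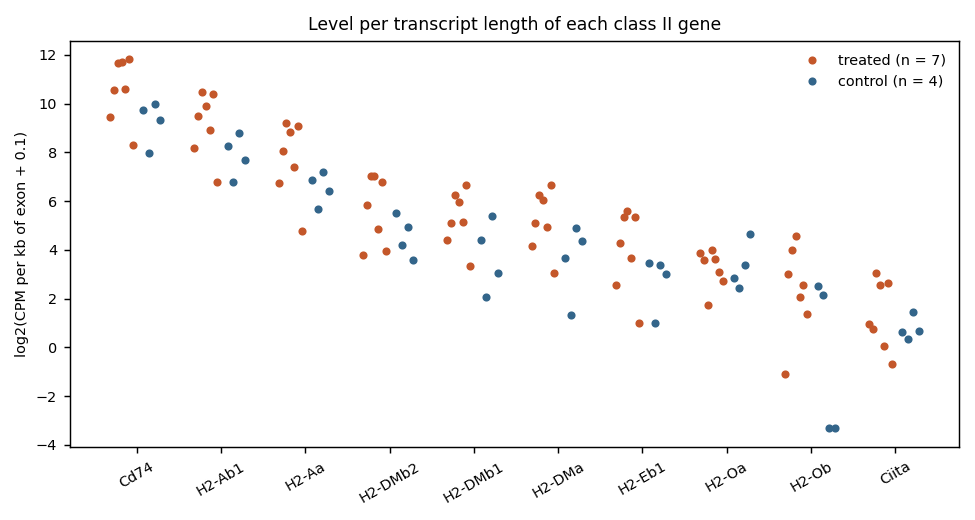
The level of each class II gene per exon length in every library, as log2 of TMM-scaled CPM per kb plus 0.1, with the treated libraries left of the control libraries for each gene. Cd74 is highest (mean 2047 CPM per kb in treated, 687 in control) and Ciita lowest (3.59 in treated, 1.68 in control), and the groups overlap for each gene.

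H2-Eb1 encodes the E beta chain, which pairs with E alpha. Mice of the H2 haplotype carried by FVB/N are known not to make the E alpha chain, so that A alpha and A beta form their main class II pair. H2-Eb1 stood at 24.2 ± 18.8 CPM per kb in treated and 7.77 ± 4.15 in control libraries. Within a library, H2-Eb1 had 0.0134 to 0.0390 counts for each H2-Ab1 count in treated and 0.0131 to 0.0289 in control libraries. H2-Ea, the E alpha gene, is not among the 10 genes, and its reads were found in every library, with 18.9 ± 12.2 in treated, against 12.4 ± 11.7 CPM in control. The reads were aligned to GRCm38, which is the genome of another strain with another H2 haplotype. How many reads of the polymorphic chains were lost by this was not tested, and it limits the comparison of levels between genes.

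H2-Oa, H2-DMa, H2-DMb2, H2-DMb1, H2-Ob, H2-Ab1, H2-Aa and H2-Eb1 lie within 224 kb of mouse chromosome 17 (GRCm38, 34092340 to 34316674), the class II region. The promoter sequences of this region show the element that the genes share, and are given for that reason. RefSeq promoter entries on GRCm38.p6, each with 250 bases before and 50 bases after the gene start, were matched for 7 of the 10 genes. They carry the reference strain's alleles, not those of FVB/N. The Y box, bound by NF-Y, was searched as GATTGG on both strands, and the X box, bound by RFX and CREB factors, as AACNNATGA on both strands. The X motif was written after these promoters had been read. GATTGG occurred on the gene's strand in a promoter of each of the 7 genes, against 16.1% of 32851 promoters on either strand. AACNNATGA followed by GATTGG 15 to 35 bases later on the same strand occurred in 8 promoters in all (0.0244%). These 8 were H2-Eb1, H2-DMb1, H2-DMb2, H2-Ob, BC051142, Casp8, Dnah6 and Tnfrsf9. In each class II promoter below, the first run of capitals is the X motif where there is one, and the last is the Y motif:
H2-Eb1, chr17:34305757-34305826, plus strand: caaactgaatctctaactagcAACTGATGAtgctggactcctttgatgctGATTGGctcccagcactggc
H2-DMb1, chr17:34153079-34153148, plus strand: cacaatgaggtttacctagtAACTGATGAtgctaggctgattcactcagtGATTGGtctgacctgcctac
H2-DMb2, chr17:34145108-34145177, plus strand: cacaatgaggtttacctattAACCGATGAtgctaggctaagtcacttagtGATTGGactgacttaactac
H2-Ob, chr17:34238797-34238866, plus strand: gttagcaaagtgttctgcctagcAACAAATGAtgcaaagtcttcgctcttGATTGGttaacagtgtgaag
H2-Aa, chr17:34287853-34287922, minus strand: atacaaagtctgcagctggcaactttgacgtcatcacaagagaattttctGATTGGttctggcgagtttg
H2-Oa, chr17:34092285-34092354, plus strand: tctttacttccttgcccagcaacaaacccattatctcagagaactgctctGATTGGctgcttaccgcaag

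The X motif began 27 to 30 bases before the Y motif in H2-Eb1, H2-DMb1, H2-DMb2 and H2-Ob. The Y motif began 44 to 91 bases before the gene start in the 6 promoters shown. H2-DMa had a GATTGG match only in the second of its RefSeq promoters, 199 bases before the start, and none in the first. H2-DMb1 and H2-DMb2, adjacent genes for the DM beta chain, also share transcript sequence. Of all 50-base windows of their GENCODE M21 transcripts, 369 were identical, which is 27.2% of the windows of H2-DMb1 and 21.2% of those of H2-DMb2. The reads of these windows could be counted to either gene, so the split of the pair is uncertain.

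The main comparison asked how cisplatin with both antibodies altered class II transcripts in the sorted cells relative to control antibody. In the edgeR quasi-likelihood test 0 of the 10 genes passed an adjusted p of 0.05, in either direction, and 0% of the 11389 genes tested were called higher and 0% lower. The log2 fold change was above 0 for 9 of 10 genes, against 51.8% of all genes tested. It was above 1 for the same 9, against 11.2% of all genes tested. An unadjusted p under 0.05 was found for 4 of 10 genes, all with a positive fold change, against 3.7% of all genes tested with a positive one and 6.82% in either direction. Most of the 10 genes varied together between libraries, so these counts are not separate observations. The median log2 fold change was 1.53 over the 10 genes and 0.03 over all genes tested. Without control 3 and control 4, the libraries rich in haemoglobin, it was 1.92 over the 10 genes, of which 0 passed (edgeR, lowest adjusted p = 0.494). For each of the 10 genes the groups overlapped, whereas 0.509% of all genes tested had every treated library above every control library and 0.43% had every one below. DESeq2 called 0 of the 10 genes, with 0.488% of its 12509 genes called higher and 0.168% lower.

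Cd74, the invariant chain (chromosome 18, 60803848 to 60812652, plus strand, GRCm38), stood at 533 CPM in the lowest, 2596 in the median and 6075 in the highest treated library, against 1420, 427, 1677 and 1088 CPM in control 1 to control 4. In 5 of 7 treated libraries it was above the highest control, and in treated 1 and treated 7 it was not. The log2 fold change was 1.58 ± 0.60 (SE; adjusted p = 0.626, edgeR).

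H2-Ab1, the A beta chain (34257689 to 34269419 on chromosome 17), stood at 282, 1858 and 3674 CPM in the lowest, median and highest treated libraries, against 779, 285, 1143 and 535 CPM in the 4 controls. H2-Aa, the A alpha chain (34282744 to 34287823), stood at 105, 998 and 2251 CPM in treated libraries, against 441, 195, 563 and 322 CPM in the 4 controls. For both genes the same 5 treated libraries were above all controls, and treated 7 was below all of them. Fold changes on the log2 scale were 1.51 ± 0.60 for H2-Ab1 (SE; adjusted p = 0.634, edgeR) and 1.62 ± 0.66 for H2-Aa (SE; adjusted p = 0.671, edgeR). H2-Eb1 (34305867 to 34316674) stood at 3.70, 37.6 and 94.8 CPM in treated libraries, against 21.4, 3.68, 20.03 and 15.3 CPM in the 4 controls. Again 5 treated libraries were above all controls, and treated 7 was close to control 2. The log2 fold change of H2-Eb1 was 1.64 ± 0.76 (SE; adjusted p = 0.728, edgeR).

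**Figure D2:**
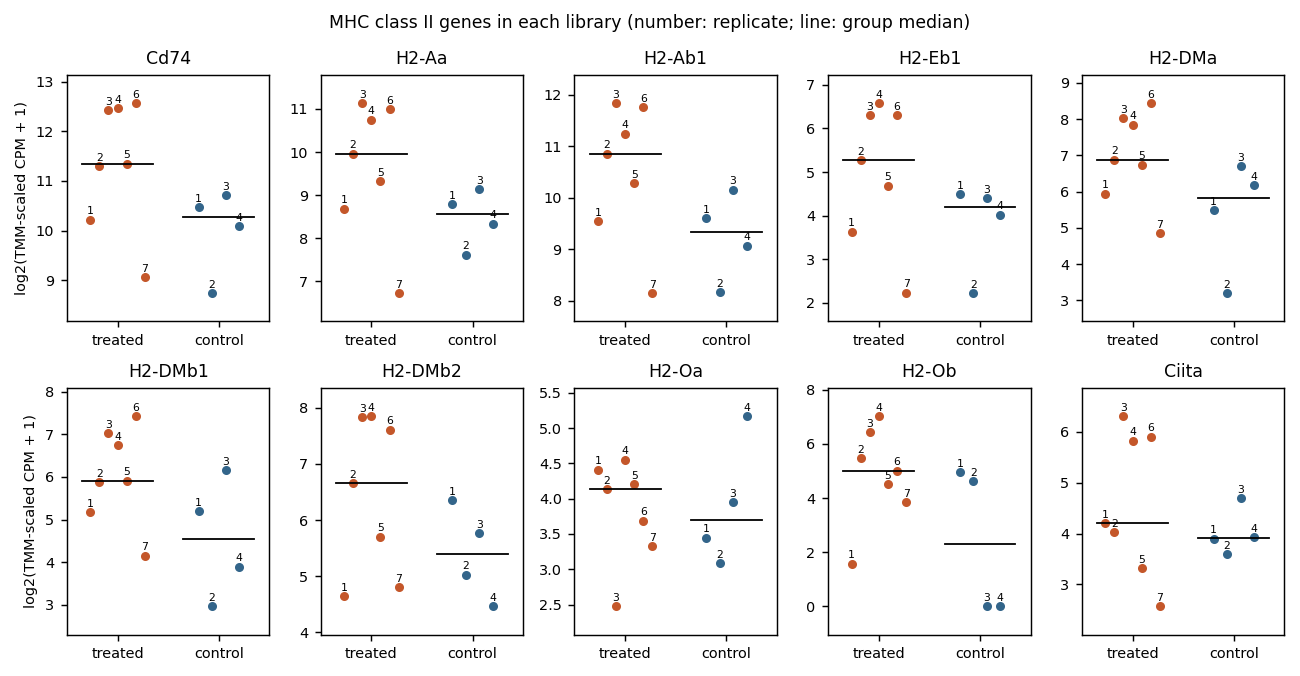
TMM-scaled CPM of the 10 class II genes in each library, as log2 of CPM plus 1, with treated libraries left of control libraries, the replicate number beside each point and a line at the group median. Treated 3, treated 4 and treated 6 are the highest libraries for Cd74 (5516, 5638 and 6075 CPM, against at most 1677 CPM in control), and H2-Oa does not follow this order.

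Treated 3, treated 4 and treated 6 were also the highest libraries for the DM genes. H2-DMa, the DM alpha chain (34119541 to 34139101 on chromosome 17), stood at 28.0, 117 and 347 CPM in the lowest, median and highest treated libraries, against 43.6, 8.21, 103 and 71.3 CPM in control 1 to control 4. It had the highest value of all in treated 6 and the lowest of all in control 2. Its log2 fold change was 1.54 ± 0.71 (SE; adjusted p = 0.728, edgeR), and 2.69 without control 3 and control 4 (adjusted p = 0.494, edgeR). H2-DMb1 (34153072 to 34160230) stood at 16.7, 59.1 and 171 CPM in treated libraries, against 35.5, 6.79, 70.1 and 13.8 CPM in the controls. H2-DMb2 (34143307 to 34151555) stood at 24.1, 99.7 and 229 CPM in treated libraries, against 80.7, 31.6, 53.3 and 21.1 CPM in the controls. Only 3 treated libraries of H2-DMb1 and 4 of H2-DMb2 were above all controls, fewer than for H2-DMa, with 5. Their log2 fold changes were 1.39 ± 0.66 and 1.38 ± 0.66 (SE; adjusted p = 0.731 for both, edgeR), and with the counts of both genes added into 1 row it was 1.38 ± 0.62 (SE; adjusted p = 0.720, edgeR). Without control 3 the value for H2-DMb1 was 2.13 (adjusted p = 0.642, edgeR).

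H2-Oa, the DO alpha chain (34092340 to 34095234 on chromosome 17), stood at 4.56, 16.6 and 22.4 CPM in the lowest, median and highest treated libraries, against 9.89, 7.499, 14.4 and 34.9 CPM in control 1 to control 4. No treated library was above control 4, and treated 3, on top for H2-Ab1, was the lowest of all 11. The log2 fold change was -0.19 ± 0.58 (SE; adjusted p = 0.976, edgeR), and it was 0.48 without control 4. H2-Ob, the DO beta chain (34238903 to 34254414), stood at 1.98, 31.3 and 129 CPM in treated libraries, against 30.1, 23.5, 0 and 0 CPM in the controls. The 0 counts in control 3 and control 4 allow up to 0.804 and 0.765 CPM of the library total. The log2 fold change of H2-Ob was 1.76 ± 1.27 (SE; adjusted p = 0.866, edgeR), and 0.84 without control 3 and control 4, the libraries rich in haemoglobin.

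Ciita, the transactivator (chromosome 16, 10480059 to 10528418, plus strand), stood at 4.94, 17.4 and 78.2 CPM in the lowest, median and highest treated libraries, against 13.95, 11.04, 24.8 and 14.2 CPM in control 1 to control 4. It was high in treated 3, treated 4 and treated 6 at 78.2, 55.8 and 59.0 CPM, and in treated 5 and treated 7 it was below all controls. Its log2 fold change was 1.10 ± 0.69 (SE; adjusted p = 0.828, edgeR). Ciita is a long gene expressed from several promoters that serve different cell types, and gene counts do not separate them.

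Counted by library, treated 3, treated 4 and treated 6 were each above all controls for 9 of 10 genes, treated 2 for 7 and treated 5 for 5. Treated 7 was above all controls for 0 genes and below all of them for 3. Treated 1, the one treated library that shares the letters KDV with the controls, lay within the range of the controls for 10 of 10 genes. The matching share of all genes tested was not computed for each library, so these counts have no background beside them. Most of the 10 genes varied together, so the counts are not separate observations. The VIS libraries hold no control, so the comparison within KDV rests on treated 1 alone. With the letters as a covariate the log2 fold change was 0.04 for Cd74, 0.11 for H2-Aa, 0.12 for H2-Ab1 and -0.41 for H2-Eb1 (edgeR, adjusted p = 1 for each gene).

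Across the 7 treated libraries most class II genes followed H2-Ab1. On log2 CPM, Pearson r with H2-Ab1 was 0.995 for H2-Aa (exact permutation p = 0.000198, adjusted p = 0.00238 over 12 relations) and 0.979 for Cd74 (exact permutation p = 0.00159, adjusted p = 0.00381). It was 0.981 for H2-DMa, 0.978 for H2-Eb1, 0.977 for H2-DMb1 and 0.915 for H2-DMb2, with adjusted p of 0.00238 to 0.00397 (exact permutation). Spearman rho was 1.0 for H2-Aa (exact permutation p = 0.000397, adjusted p = 0.00476) and 0.857 to 0.964 for the other 5, with adjusted p of 0.0167 to 0.0408 (exact permutation). Without treated 1 and treated 7, the libraries farthest from the median of H2-Ab1, r was 0.982 for H2-Aa and 0.876 to 0.929 for the other 5. Library size and the scaling factor are shared by all genes of a library.

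Ciita followed H2-Ab1 with r = 0.882 (exact permutation p = 0.00575, adjusted p = 0.00986) and rho = 0.893 (exact permutation p = 0.0123, adjusted p = 0.0295), and r was 0.952 without treated 1 and treated 7. Without treated 7 alone the relation of Ciita no longer passed, at r = 0.815 (exact permutation p = 0.0583, adjusted p = 0.0778). H2-Ob had r = 0.678 (exact permutation p = 0.0948, adjusted p = 0.126) and rho = 0.786 (exact permutation p = 0.0480, adjusted p = 0.0640), and r was 0.494 without treated 1 and treated 7. H2-Oa had r = -0.139 (exact permutation p = 0.754, adjusted p = 0.823) and rho = -0.25 (exact permutation p = 0.595, adjusted p = 0.649), and r was -0.648 without those libraries.

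**Figure D3:**
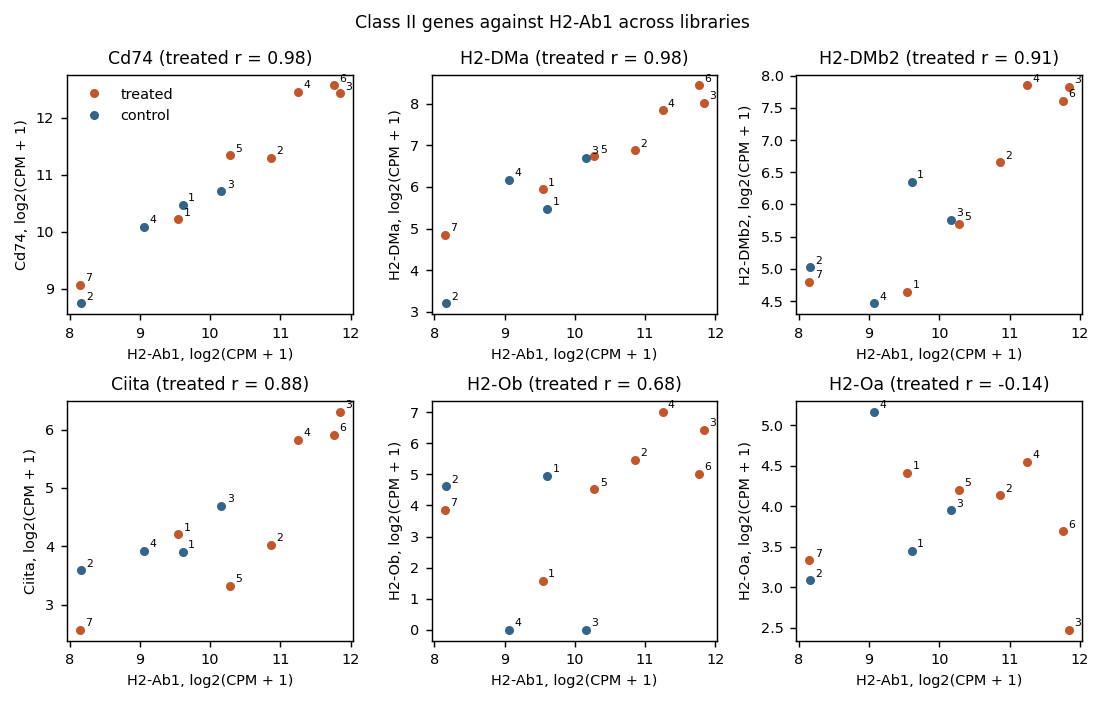
Cd74, H2-DMa, H2-DMb2, Ciita, H2-Ob and H2-Oa against H2-Ab1, both axes as log2 of TMM-scaled CPM plus 1, with 1 point for each treated or control library and the replicate number beside it. Cd74 and H2-DMa track H2-Ab1 closely in the 7 treated libraries (r = 0.979 and 0.981), while H2-Oa does not (r = -0.139).

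Ratios of class II genes within a library need no scaling. Their mean difference on the log2 scale was -0.09 for H2-Aa to H2-Ab1, -0.01 for H2-Eb1 to H2-Ab1, -0.06 for H2-Ab1 to Cd74 and 0.33 for H2-DMa to H2-Ab1 (exact two-sided permutation test, adjusted p = 0.946 for each over 5 ratios). H2-Aa had 0.372 to 0.707 counts for each H2-Ab1 count in treated and 0.493 to 0.685 in control libraries. H2-Ab1 had 0.432 to 0.738 counts for each Cd74 count in treated and 0.492 to 0.682 in control libraries. These ratios spanned at most 1.90-fold over the 11 libraries, while H2-Ab1 itself spanned 13.01-fold within the treated group. H2-DMa had 0.0628 to 0.0999 counts for each H2-Ab1 count in treated and 0.0290 to 0.134 in control libraries, the wider spread being among the controls. Its log2 difference of 0.33 was 1.05 without control 3 and control 4 (exact two-sided permutation p = 0.0556, adjusted p = 0.278).

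B cell markers varied in the same libraries. The sum of 20 B cell markers was 1478 CPM of the library total in the lowest, 4324 in the median and 10370 in the highest treated library, against 4273, 2537, 568.2 and 1539 CPM in control 1 to control 4. In 4 of 7 treated libraries it was above the highest control. The log2 sum was higher by 1.22 in treated libraries (exact two-sided permutation p = 0.145, adjusted p = 0.436 over 6 marker lists). That difference was 0.67 without control 3 and 0.31 without control 3 and control 4 (exact two-sided permutation p = 0.4 and 0.778). Of 19 markers tested, 17 had a log2 fold change above 0, with a median of 1.71, and 0 passed (edgeR). Of the defining markers, Ms4a1 and Cd79a were detected in all 11 libraries, and Pax5 was at 0 counts in treated 1 and control 3. Detection of Ms4a1 was marginal in control 3, at 0.401 CPM, and low in control 4, at 2.18 CPM. Cd79a, a chain of the B cell receptor, stood at 17.3, 167 and 577 CPM in the lowest, median and highest treated libraries, against 113, 78.4, 6.01 and 40.4 CPM in the controls. Ighm and Bank1 made up most of the sum in treated 1, treated 7 and control 3. They stood at 981 and 338 CPM in treated 1, 1810 and 362 in treated 7, and 589 and 177 in control 3. Cd79a was at 17.3, 23.9 and 6.01 CPM there. In these libraries the sum mainly follows Ighm and Bank1, also where it is used below.

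H2-Ab1 was also set against Cd79a within each library. It had 43.0, 11.1, 6.37, 5.36, 38.1, 18.9 and 11.8 counts for each Cd79a count in treated 1 to treated 7, against 6.87, 3.64, 184 and 13.2 in control 1 to control 4. This ratio spanned 50.7-fold over the 11 libraries, and without control 3 it ran from 3.64 to 43.0. Its mean log2 difference between groups was -0.11 (exact two-sided permutation p = 0.879, adjusted p = 0.946), and 1.08 without control 3 (exact two-sided permutation p = 0.217, adjusted p = 0.556). Within treated libraries H2-Ab1 and the B cell marker sum had r = 0.728 (exact permutation p = 0.0645, adjusted p = 0.0967) and rho = 0.786 (exact permutation p = 0.0480, adjusted p = 0.0640), with r = 0.713 without treated 1 and treated 7. With the B cell marker sum as a covariate, the log2 fold change was 0.86 for Cd74, 0.90 for H2-Ab1, 0.75 for H2-Aa, 1.14 for H2-DMa and 1.13 for H2-DMb1. It was 0.09 for H2-DMb2, 0.12 for H2-Ob, 0.14 for Ciita and 0.48 for H2-Eb1 in that fit (edgeR, lowest adjusted p = 0.987 of the 10 genes).

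**Figure D4:**
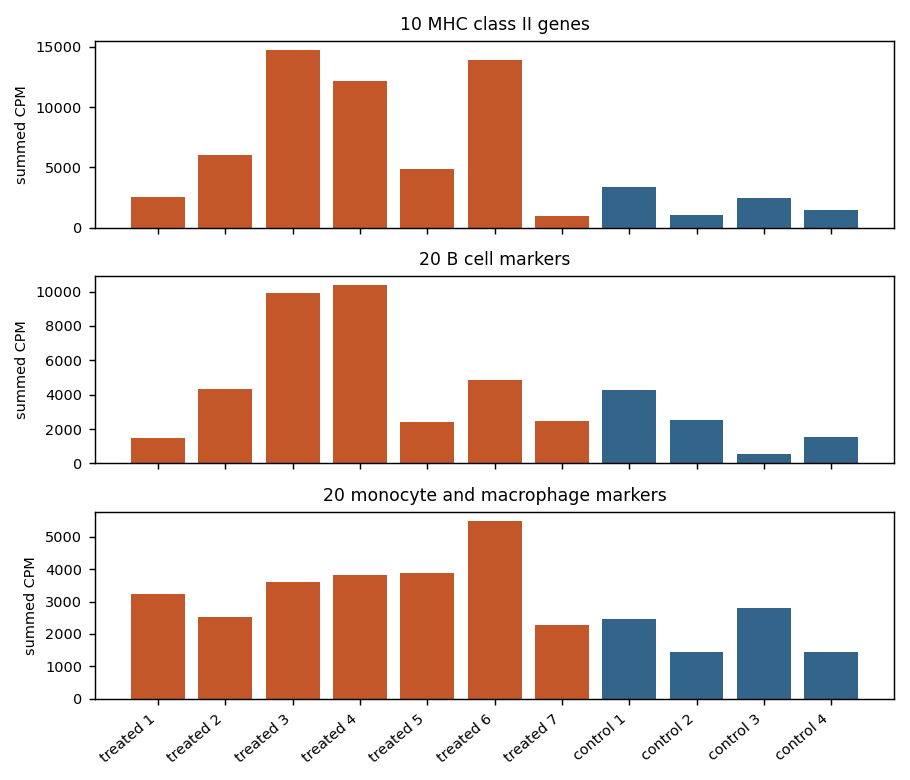
Bars give the summed CPM of the library total in each library for the 10 class II genes, 20 B cell markers and 20 monocyte and macrophage markers, with treated libraries left of control libraries. The B cell sum is highest in treated 3 and treated 4 (9944 and 10370 CPM), the monocyte and macrophage sum in treated 6 (5483 CPM), and all 3 of these libraries are high in class II genes.

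For monocytes and macrophages, the sum of 20 markers was 2278, 3600 and 5483 CPM of the library total in the lowest, median and highest treated libraries, against 2471, 1443, 2785 and 1435 CPM in control 1 to control 4. In 5 of 7 treated libraries it was above the highest control. The log2 sum was higher by 0.81 in treated libraries (exact two-sided permutation p = 0.0303, adjusted p = 0.182 over 6 marker lists). With erythroid markers left out of the library total, that difference was 0.64 (exact two-sided permutation p = 0.0909, adjusted p = 0.242). Without control 3 and control 4 the difference was 0.86 (exact two-sided permutation p = 0.111, adjusted p = 0.222). Of 18 markers tested, 15 had a log2 fold change above 0, with a median of 0.66, and 0 passed (edgeR). Csf1r and Ly6c2 were detected in all 11 libraries, and C1qa was at 0 in control 1. C1qa, a complement gene of tissue macrophages, stood at 52.9 ± 64.2 in treated, against 4.76 ± 3.80 CPM in control (SD, n = 7 and 4; adjusted p = 0.637, edgeR).

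With the monocyte and macrophage sum as a covariate, the log2 fold change was 0.08 for Cd74, 0.20 for H2-Ab1, 0.21 for H2-Aa and 0.0005 for H2-DMa. It was -0.30 for H2-DMb1, -0.48 for Ciita and 1.17 for H2-Ob there (edgeR, lowest adjusted p = 0.956 of the 10 genes). Within the treated libraries this sum and H2-Ab1 had r = 0.528 (exact permutation p = 0.222, adjusted p = 0.267) and rho = 0.393 (exact permutation p = 0.396, adjusted p = 0.475), with r = 0.192 without treated 1 and treated 7. Eosinophils share some markers of this list with monocytes. The part of B cells, monocytes and macrophages in the class II values was not tested beyond these fits.

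The remaining marker lists gave no call. The sum of 16 eosinophil markers was 4985, 9305 and 12210 CPM of the library total in the lowest, median and highest treated libraries, against 12420, 10490, 7947 and 8062 CPM in the 4 controls. Treated 3, on top for H2-Ab1, had the lowest eosinophil sum. The sum of 18 T and NK cell markers was 35.4, 68.5 and 116 CPM in treated libraries, against 34.8, 43.7, 126 and 97.4 CPM in the controls. Of its defining markers, Cd3e was found in 5 treated and 0 control libraries, Cd8a in 2 and 0, Trac in 6 and 1, and Ncr1 in 6 and 2. Of 10 T and NK cell markers tested, 6 had a log2 fold change below 0, with a median of -0.47 (edgeR). The defining markers Trac and Ncr1 went the other way, at 2.11 and 0.39 (edgeR, adjusted p = 0.901 and 0.983). Both were low, with Trac at 4.58 ± 4.52 in treated, against 1.09 ± 2.18 CPM in control (SD, n = 7 and 4). Erythroid markers summed to 12480, 28170 and 47650 CPM in treated libraries, against 11150, 1724, 296600 and 211900 CPM in the controls. The exact two-sided permutation test gave an adjusted p of 0.921 for each of these 3 lists over 6 marker lists.

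**Figure D5:**
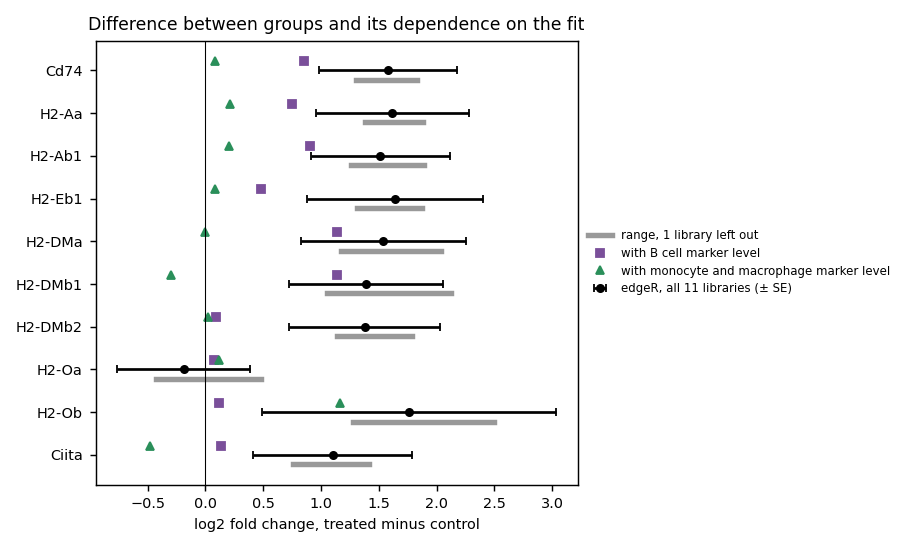
Log2 fold change, treated minus control, of each class II gene, with the edgeR estimate and its SE over 11 libraries in black, the range when 1 library is left out in grey, and the estimates with a marker sum as covariate as a square (B cell) or triangle (monocyte and macrophage). For Cd74 these are 1.58 ± 0.60, 1.31 to 1.83, 0.86 and 0.08, and the triangle is at a lower fold change than the black point for each gene except H2-Oa.

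For dendritic cells, the sum of 20 markers was 1202, 1523 and 2201 CPM of the library total in the lowest, median and highest treated libraries, against 2975, 2917, 1167 and 1316 CPM in control 1 to control 4 (exact two-sided permutation p = 0.412, adjusted p = 0.824 over 6 marker lists). The log2 difference was -0.25, and -0.87 without control 3 and control 4 (exact two-sided permutation p = 0.0556, adjusted p = 0.167). Cd24a, which eosinophils also express, had 1168 ± 336 in treated, against 1844 ± 486 CPM in control (SD, n = 7 and 4). It made up most of the sum, so the sum mainly follows this gene. Wdfy4, the next most abundant over all libraries, had 94.5 ± 48.5 in treated, against 56.6 ± 19.2 CPM in control (SD, n = 7 and 4). Of the defining markers, Clec9a had 0 counts in all treated libraries and in 3 controls. Flt3 was found in 1 treated and 1 control library, Xcr1 in 5 treated and 1 control, and Zbtb46 in 7 treated and 2 control libraries, at 3.37 ± 2.95 in treated, against 0.693 ± 1.16 CPM in control (SD, n = 7 and 4). Within treated libraries the sum had r = 0.0423 with H2-Ab1 (exact permutation p = 0.930, adjusted p = 0.930) and rho = -0.0714 (exact permutation p = 0.906, adjusted p = 0.906), with r = 0.0489 without treated 1 and treated 7.

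Genes that act upstream of class II transcription were read as a list. Of 24 listed factors 23 were tested, 0 passed in either direction, 16 had a log2 fold change above 0, and the median was 0.28 (edgeR). The most abundant were Spi1, a myeloid transcription factor, at 1134 ± 337 in treated, against 1115 ± 390 CPM in control (SD, n = 7 and 4), and Ifngr1, a chain of the interferon gamma receptor, at 621 ± 301 and 511 ± 246 CPM in treated and control. Jak1, the kinase bound to that receptor, stood at 569 ± 149 in treated, against 470 ± 80.6 CPM in control, and Irf1, an interferon-induced factor, at 189 ± 75.4 and 181 ± 59.6 CPM. An unadjusted p under 0.05 was found for 5 factors, among them Creb1, Ep300, Irf2 and Jak2, which are named after their values were seen. Their log2 fold changes were 0.92, 0.88, 0.61 and 1.04. Irf2, an interferon regulatory factor, was the one of them with every treated library above every control. The X box subunit gene Rfx5, also named after its values were seen, was too low to test, with counts in 5 treated libraries and 1 control.

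For peptide generation and class II traffic, of 25 listed genes 23 were tested, 15 had a log2 fold change above 0, and the median was 0.10 (edgeR, 0 higher and 0 lower). Cst3, a cathepsin inhibitor, stood at 1529 ± 498 in treated, against 1611 ± 432 CPM in control (SD, n = 7 and 4), and the endosomal protease gene Ctsb at 1450 ± 669 and 1133 ± 920 CPM. Ctss, the protease that trims the invariant chain, stood at 1147 ± 902 in treated, against 724 ± 874 CPM in control, and Ctsd at 733 ± 172 and 832 ± 184 CPM. Of 13 costimulation genes 9 were tested, 4 had a log2 fold change above 0, and 0 passed, with a median of -0.04. Cd48, a ligand of lymphocytes, stood at 342 ± 52.9 in treated, against 402 ± 35.6 CPM in control, and Cd86, a ligand of CD28 and CTLA4, at 56.7 ± 15.3 and 66.6 ± 14.9 CPM. Slamf1 stood at 60.7 ± 32.2 in treated, against 201 ± 225 CPM in control, where control 3 and control 4 held 401 and 391 CPM. Icam1, an adhesion ligand, stood at 69.7 ± 29.7 and 71.9 ± 24.9 CPM.

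Other genes of the class II region and of class I were read in the same way. Of 13 listed genes 10 were tested, 8 had a log2 fold change above 0, and 0 passed, with a median of 0.19 (edgeR). The class I genes H2-D1 and H2-K1 stood at 10870 ± 1668 and 1462 ± 392 CPM in treated (SD, n = 7), against 9373 ± 2629 and 1037 ± 311 CPM in control libraries (SD, n = 4). B2m, their light chain, stood at 4064 ± 985 in treated, against 4592 ± 1896 CPM in control, and the immunoproteasome gene Psmb8 at 311 ± 95.2 and 259 ± 38.9 CPM.

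Over the 11 libraries, 8225 genes whose mean reached 10 CPM in either group were ranked by Pearson r of log2 CPM with H2-Ab1, as a description. H2-Aa, Cd74, H2-Eb1 and H2-DMb1 ranked 2 to 5, with r from 0.953 to 0.986, H2-DMa ranked 7, H2-DMb2 ranked 12 and Ciita 33. H2-Ob ranked 783 with r = 0.463 and H2-Oa 4398 with r = -0.056. Outside the class II genes the closest were Mcub, Ifi30, Fbxo4, Pdia3 and Zfp36l1, with r of 0.952, 0.917, 0.91, 0.894 and 0.893. Mcub, an inhibitory subunit of the mitochondrial calcium uniporter, stood at 23.0 ± 16.7 in treated, against 3.32 ± 4.38 CPM in control (SD, n = 7 and 4). Ifi30, a lysosomal thiol reductase that prepares antigens for class II loading, stood at 124 ± 84.4 in treated, against 68.5 ± 48.2 CPM in control. Fbxo4, an F-box protein, stood at 11.6 ± 7.81 and 3.06 ± 3.16 CPM, Pdia3, a disulfide isomerase of the endoplasmic reticulum, at 440 ± 139 and 317 ± 55.6 CPM, and Zfp36l1, an RNA-binding protein, at 31.7 ± 18.9 and 18.9 ± 5.65 CPM. None of these 5 genes passed the edgeR test between groups (adjusted p from 0.678 to 0.852).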

How the data were processed

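Sorted eosinophils were sequenced after Smart-seq2 preparation (labels' protocols). What the authors deposited is 1 table of unnormalized counts, with a column for each library. The tools HISAT2 2.10, SAMtools 1.15.1 and bcl2fastq 2.20.0.422 and the build GRCm38 come from the submitters' processing notes. For the read counter, strandedness and gene annotation the sources used here give nothing, and reads of overlapping genes or near-copies may be shared. The row that names no gene held 0 counts and was left out. Of 55486 genes, 55226 matched GENCODE M21 by identifier, which gave exon lengths. All 10 class II genes had the same coordinates there.

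Groups came from sample titles. Libraries are from separate mice, per the design text, and p-values measure the spread between these samples. The main test was edgeR 4.0.16 under R 4.3.3 (quasi-likelihood, robust, TMM, filterByExpr) with Benjamini-Hochberg adjustment over 11389 genes at 0.05, and all 10 genes passed the filter. An SE is the fold change over the root of its F statistic. Exact permutation tests used scipy 1.17.1 under Python 3.11.15. Ratios had 0.5 counts added, and relations used log2 of TMM-scaled CPM plus 1. The test was checked on simulated counts. Replicate numbers did not pair the libraries (correlations of deviations -0.11 to 0.02). No 2 libraries of the same group were duplicates (chi-square per gene 59.2 or more).

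The class II genes and all lists were chosen with earlier results of these data known. Named are the 10 genes, the 4 most abundant of each other pathway list (any that passed would come first), defining markers, and the 5 genes most like H2-Ab1. Some listed genes are not reported here by name. Depth limits low genes such as Rfx5, and intervals cover counting error only, since reads had no molecular identifiers. Alternatives were other scalings, DESeq2 1.42.0, limma-voom (limma 3.58.1), other filters, a replicate block, covariates and leaving out libraries.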

Additional observations from a re-analysis of the deposited data

Results flagged for a closer look

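The ratio of H2-Eb1 to H2-Ab1 counts was 0.0390 in treated 4, far from the other treated libraries, which lay between 0.0134 and 0.0226. The ratio of H2-Ab1 to Cd79a counts was 184 in control 3, against 3.64 to 13.2 in the other controls. Cd79a stood at 6.01 CPM in control 3, the lowest value of the 11 libraries. These were the values flagged among 30 groups checked for a sample far from the rest, and chance alone flags about 1 in 20 groups.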

How the results depend on the processing

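No class II gene passed an adjusted p of 0.05 under any of the alternatives run, and the counts of class II genes higher and lower stayed at 0 when each library was left out. Over all genes, DESeq2 called 61 higher and 21 lower, and each leave-one-out fit called 0 and 0. With the replicate block, which pairs libraries that share only a number, 0 genes were called and the median log2 fold change of the 10 genes was 1.69. Library totals in place of TMM gave a median of 0.25 over all genes (0.03 with TMM) and 1.84 over the 10 genes (1.53 with TMM). Without control 3 and control 4 the median of the 10 genes was 1.92. It was 0.61 with the B cell marker sum as a covariate, 0.08 with the monocyte and macrophage sum and 0.11 with the identifier letters. The sign of H2-Oa was not stable. Its log2 fold change was 0.21 with library totals only, 0.28 with limma-voom, 0.48 with detected genes as a covariate, 0.0744 with the B cell and 0.11 with the monocyte and macrophage marker sum, 0.29 with the identifier letters and 0.78 without control 3 and control 4, and leaving out 1 library gave -0.43 to 0.48. With the monocyte and macrophage sum H2-DMb1 turned to -0.30 and Ciita to -0.48. With the identifier letters H2-Eb1 turned to -0.41, H2-DMb2 to -0.96 and H2-Ob to -2.78. The cause was not tested.

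Differences in ratio depended on single libraries. Without control 3 and control 4 that of H2-Eb1 to H2-Ab1 was 0.11, that of H2-Ab1 to Cd79a 1.54 and that of H2-DMa to H2-Ab1 1.05. Leaving out 1 library gave -0.23 to 0.15 for H2-Eb1 to H2-Ab1, -0.15 to 0.0108 for H2-Ab1 to Cd74, -0.0722 to 0.66 for H2-DMa to H2-Ab1 and -0.81 to 1.08 for H2-Ab1 to Cd79a. Of the marker sums, T and NK cell markers turned to 0.68 and erythroid markers to 2.49 without control 3 and control 4, while B cell markers were at 0.31 and dendritic cell markers at -0.87. Leaving out 1 library gave -0.36 to 0.25 for T and NK cell, -0.22 to 0.0019 for eosinophil and -1.85 to 0.62 for erythroid markers. The relation of H2-Ab1 with Ciita had r = 0.815 without treated 7 (exact permutation p = 0.0583, adjusted p = 0.0778). Leaving out 1 treated library gave r of -0.644 to 0.4219 for H2-Oa and -0.536 to 0.431 for dendritic cell markers.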

Other observations

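The counts of H2-DMb2 per count of H2-DMb1, a ratio chosen after the values were seen, differed widely between libraries. They were 0.684, 1.72, 1.75, 2.16, 0.863, 1.14 and 1.61 in treated 1 to treated 7, against 2.27, 4.65, 0.76 and 1.53 in control 1 to control 4. The lowest ratios were in treated 1, treated 5 and control 3, where the B cell marker sum was 1478, 2398 and 568.2 CPM of the library total. Treated 7 and control 4 had B cell sums of 2450 and 1539 CPM with ratios of 1.61 and 1.53. The highest was in control 2, where H2-DMb1 had 48 counts and the B cell sum was 2537 CPM. No test was made of this ratio, and reads that fit both genes may have been counted to either.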
